A study of Rattus norvegicus with 9 samples.

Results

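In HBZY-1, a cell line of mesangial cells from the rat glomerulus, 71 of 12192 tested genes were at least 2-fold higher in an LPS-induced inflammatory model than in control cells. In cells given a leech extract they were at least 2-fold lower than in that model. Mesangial cells are the contractile support cells between the capillaries of the kidney's filtering unit. The study sequenced RNA of 3 control libraries, 3 libraries of the LPS-induced model and 3 libraries of a group given a water extract, labelled as high dose, from lyophilized powder of the leech Poecilobdella manillensis, and its title asks whether the powder improves inflammatory injury of these cells. The labels do not say whether the extract group also received LPS, whether the control cells had any vehicle, or which doses and times were used. Rises, falls and losses below are differences between these groups, not changes followed in the same cells. The samples are called biological replicates of 1 cell line, with no word on separate culture days, so their spread may be partly technical.

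Lipopolysaccharide (LPS) is a part of the outer membrane of Gram-negative bacteria. Cells sense it mainly through Toll-like receptor TLR4 and its partners CD14 and MD-2. Signalling from this receptor activates NF-kB, AP-1 and interferon regulatory factors, which switch on genes for chemokines, cytokines, adhesion molecules and complement proteins, and also the feedback inhibitors that later damp the response. Mesangial cells are known to answer inflammatory stimuli in this way and to attract leukocytes into the glomerulus. Which of these genes are in the set could not be stated here: the deposited tables hold Ensembl rat identifiers only, and 0 of them matched the RefSeq table used for names. For that reason the members are described by their levels, their behaviour and their transcripts, and 4 of them are identified. For the same reason the cell type was not checked against marker genes.

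The members were chosen by their measured values in these same libraries, so the size and direction of the changes that define them are a description and carry no test. The values are TPM, the share of a transcript in a library scaled to 1000000, which allows levels to be set side by side between genes. Differences are between group means of log2(TPM + 1), where 1 unit is a 2-fold change of TPM + 1. In weak genes the change in TPM itself is larger. A gene entered the set when it averaged 1 TPM or more over all 9 libraries, with LPS minus control of at least 1, extract minus LPS of at most -1, every LPS value above all 6 other values, and extract minus control above -1. Of 202 genes with LPS minus control of at least 1, 161 had no overlap between LPS and control libraries, and 78 of these had extract minus LPS of at most -1. Among those 78, LPS and extract values overlapped in 3, and 4 more fell too far below control. Over all 12192 genes, 9.79% were called higher in LPS than in control cells and 25.0% lower in extract than in LPS cells (limma, adjusted p below 0.05). All 71 members were called in both, and since both contrasts chose them nothing is read from these counts. After median-of-ratios scaling of the libraries the share of higher genes among all LPS-control calls went from 24% to 48%.

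The limits of the set cut through a continuous range. The members closest to the first limit had LPS minus control of 1.02, 1.02 and 1.03, and the closest genes outside had 0.96, 0.96 and 0.95. For extract minus LPS the closest members stood at -1.02, -1.06 and -1.06 and the closest genes outside at -0.999, -0.996 and -0.95. For extract minus control the closest members stood at -0.98, -0.87 and -0.85 and the closest genes outside at -1.04, -1.10 and -1.12.

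**Figure D1:**
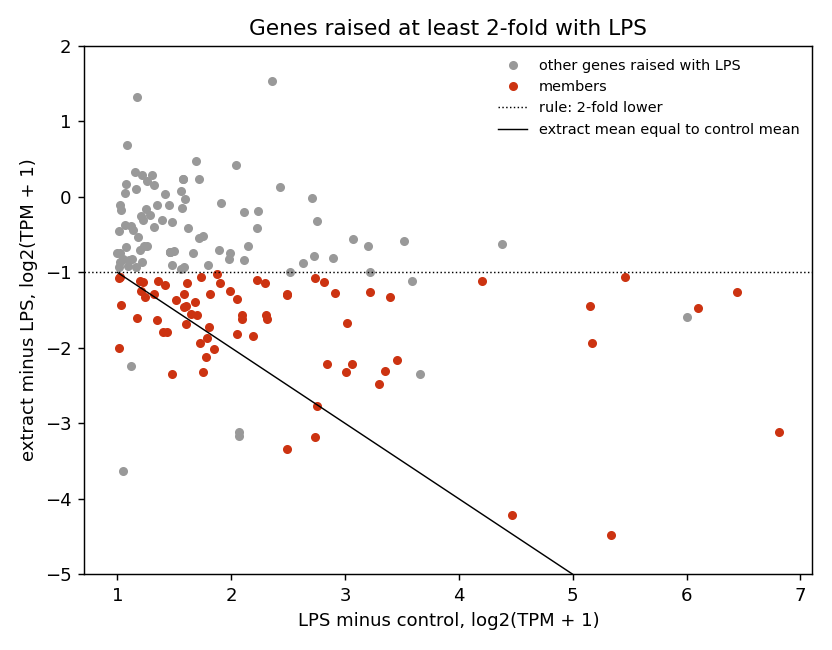
Extract minus LPS (vertical axis) against LPS minus control (horizontal axis), both as differences of group means of log2(TPM + 1), for the 161 genes raised at least 2-fold with LPS without overlap. Each point is 1 gene, members in red, the dotted line is the 2-fold limit of the rule, and the solid line marks an extract mean equal to the control mean. Most members lie above the solid line, where the extract mean is higher than the control mean.

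As a group the members took a small part of the RNA in control cells and a larger one in the LPS model. Their TPM summed to 2349.1, 2545.3 and 2430.1 in the control libraries, 15248.3, 16737.2 and 15895.4 in the LPS libraries, and 5761.0, 5440.9 and 4865.3 in the extract libraries. The LPS sums are highest by the rule, which put every LPS value of a member above its other values. All extract sums lay above all control sums. In percent of the library these sums were at most 0.255% in control, 1.53% to 1.68% with LPS and 0.487% to 0.577% with extract. Between 67.3% and 72.9% of each sum came from the 5 members highest in that library. In bulk RNA a lower level in fewer cells and a lower level in every cell cannot be told apart.

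The typical member was weakly expressed in control cells. Median levels over the members were 2.46 TPM in control cells, 20.3 TPM with LPS and 5.15 TPM with extract, where the median over all tested genes was 18.8 TPM with LPS and 19.4 TPM with extract. In control cells 28 members were under 1 TPM, 22 between 1 and 10, 14 between 10 and 100, and 7 at 100 TPM or more. Listed at 0 TPM in all 3 control libraries was 1 member, and none was at 0 in an LPS library. In extract cells 14 members were under 1 TPM, all of them among the 28 that were under 1 TPM in control. The members varied more between libraries than the typical gene, but this comparison was not matched on level. The median coefficient of variation among 3 libraries was 14.8% for members and 5.17% for all genes in control cells, 9.52% and 5.8% in LPS cells, and 11.8% and 4.67% in extract cells.

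Over the 71 members LPS minus control ranged from 1.02 to 6.82 with a median of 1.99, against a median of -0.08 over all tested genes. Extract minus LPS ranged from -4.48 to -1.02 with a median of -1.48, against 0.04 over all genes. Extract minus control ranged from -0.98 to 5.18 with a median of 0.35, against -0.04 over all genes. The 3 differences share libraries, and all were used to choose the members. With a pseudocount of 5 in place of 1 the medians became 1.29, -1.07 and 0.18, because a higher pseudocount compresses the changes of weak genes.

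**Figure D2:**
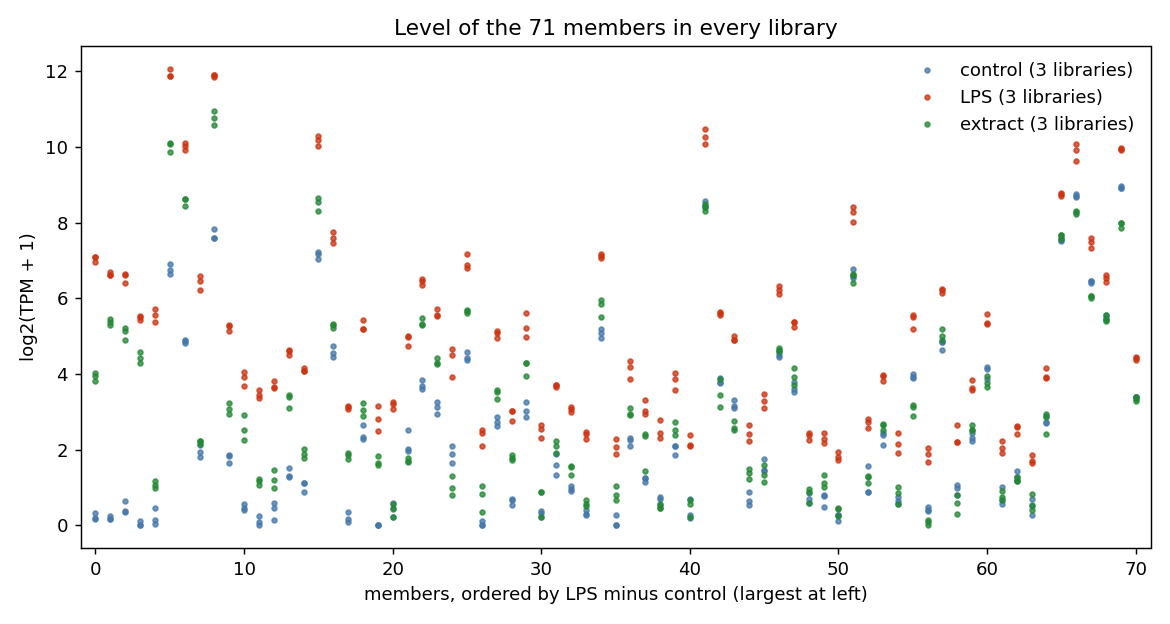
Level of each of the 71 members as log2(TPM + 1) (vertical axis), ordered along the horizontal axis from the largest to the smallest LPS minus control, with 1 point per library. Red LPS points lie above all others by the rule. Green extract points lie above the blue control points in the 17 members at the left, by little in some. Further right they lie above, among or below them.

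ENSRNOG00000013973 had the largest rise with LPS. It stood at 0.14, 0.25 and 0.13 TPM in the control libraries, 122.45, 136.05 and 135.15 TPM in the LPS libraries, and 13.08, 15.29 and 14.52 TPM in the extract libraries. The gene was thus nearly silent in control cells, among the 14 members above 100 TPM with LPS, and clearly expressed in every extract library. Its LPS minus control was 6.82 ± 0.071 (SE) and its extract minus LPS -3.11 ± 0.071. Of the increase in TPM, 89.2% was absent in extract cells.

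ENSRNOG00000057443 had the largest fall in extract cells. Its control libraries held 0.11, 0.02 and 0.37 TPM, its LPS libraries 46.13, 40.23 and 51.72 TPM, and its extract libraries 1.25, 0.97 and 1.09 TPM. The mean in LPS cells was 41.7 times the mean in extract cells, and 98.0% of the increase in TPM was absent there. Even so, all 3 extract values lay above all 3 control values. Its extract minus LPS was -4.48 ± 0.13 (SE), or -3.06 with a pseudocount of 5.

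**Figure D3:**
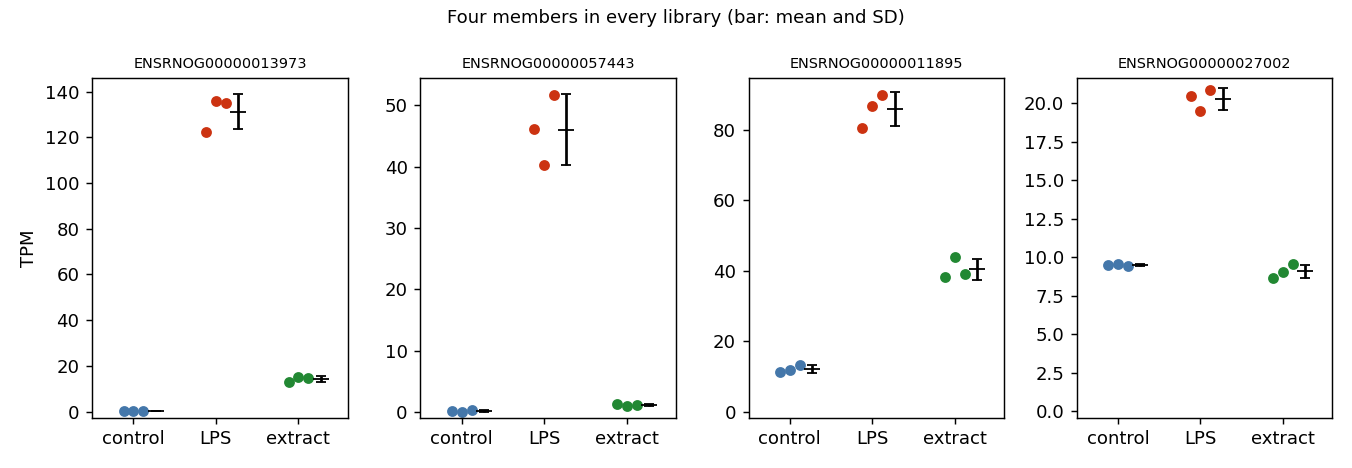
TPM (vertical axis, linear, from 0) of the 4 identified members in each library, with 3 points per group and the mean ± SD beside them. LPS libraries stand apart in all 4, and extract libraries overlap the control libraries in ENSRNOG00000027002 only.

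The most abundant members differed in how their extract levels stood against control. With LPS 14 members averaged at least 100 TPM and 5 of them at least 1000 TPM. The highest of all stood at 98.03, 119.88 and 106.16 TPM in control, 3746.78, 4275.87 and 3762.95 TPM in LPS, and 1090.95, 1068.83 and 930.90 TPM in extract libraries. It thus rose 36.4-fold in mean TPM with LPS, and 75.9% of that increase was absent in extract cells. The next stood at 191.81, 225.31 and 192.46 TPM in control, 3664.10, 3803.16 and 3799.67 TPM in LPS, and 1955.49, 1745.48 and 1527.87 TPM in extract libraries. Of its increase 56.7% was absent, so that extract cells held on average 1743 ± 213.8 TPM (SD, n = 3) against 203 ± 19.2 TPM in control. Another member of this tier was near its control level in extract cells. It stood at 337.94, 382.22 and 345.55 TPM in control, 1077.08, 1407.99 and 1228.72 TPM in LPS, and 357.69, 337.87 and 313.37 TPM in extract libraries. Control and extract values overlapped there, although LPS values were 3.48 times the control mean. The member ranked 6 by LPS level lay below control in extract cells. Its extract libraries held 254.52, 252.07 and 231.80 TPM, against 476.89, 498.73 and 482.57 TPM in control and 976.87, 1010.62 and 969.28 TPM in LPS libraries.

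Extract cells were compared with control cells member by member. In 41 members all extract values lay above all control values, in 22 the values overlapped, and in 8 all extract values lay below control. Over all tested genes 26.2% lay above without overlap and 34.8% below. By limma (adjusted p below 0.05) 39 members were higher in extract than in control cells, 8 were lower and 24 were not called, where 22.3% of all genes were called higher and 29.4% lower. The rule bounds this difference from below and was fitted to the same libraries, so these counts describe the set and nothing is read from their distance to the background.

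The extract level against control is given next by the size of the LPS rise, as a description, since the rule used both. The classes are folds of TPM + 1, which understate the fold in TPM of weak genes. A member at 0.067 TPM in control and 3.25 TPM with LPS is in the lowest class. All 17 members raised at least 8-fold lay above control in extract cells, with a median LPS minus control of 4.21, extract minus LPS of -1.93 and extract minus control of 1.96. Of 18 members raised 4- to 8-fold, 14 lay above control, 2 overlapped and 2 lay below, with a median extract minus control of 0.70. Of 36 members raised 2- to 4-fold, 10 lay above, 20 overlapped and 6 lay below, with a median of 0.06. A rule that asks for a 2-fold fall leaves a strongly raised gene room to lie above control and a weakly raised one little. Extract minus control is also the sum of the other 2 differences, so nothing is read from this ordering.

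The share of the LPS increase that was absent in extract cells, computed on mean TPM without a pseudocount, ranged from 53.2% to 148% with a median of 91.1%. It was above 100% in 20 members, between 75% and 100% in 34, and between 50% and 75% in 17. The median was 90.2% in members under 1 TPM in control, 88.9% between 1 and 10, 93.5% between 10 and 100, and 95.6% at 100 TPM or more. The values ran from 53.2% to 114% in the lowest class and from 56.7% to 148% in the highest, so the classes overlapped widely. The rule asks for a 2-fold fall, so shares under about 50% could not occur, and nothing is read from the height of the median. Over all 161 genes raised with LPS without overlap the median was 68.3%. Over the 83 of them with extract minus LPS above -1 it was 37.0%.

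**Figure D4:**
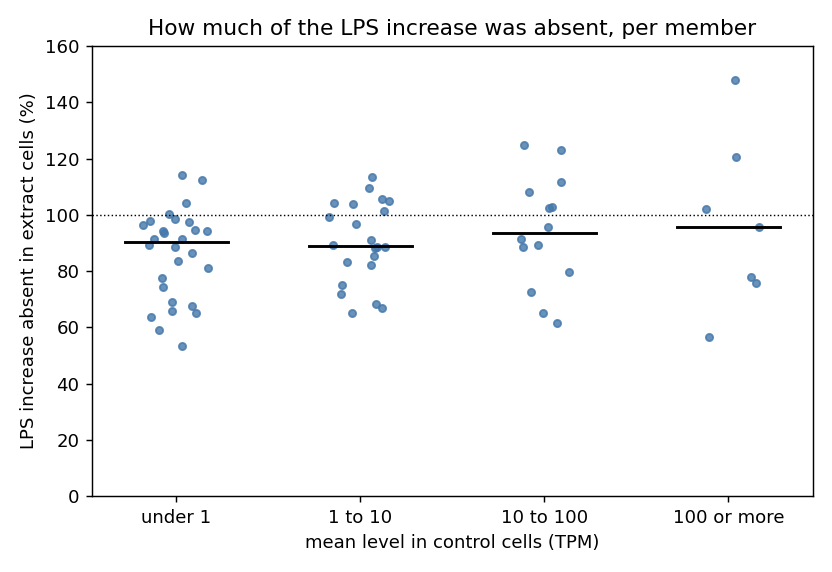
Percent of the LPS increase in mean TPM that was absent in extract cells (vertical axis) for each of the 71 members, in classes of mean control TPM (horizontal axis), with 1 point per member and a bar at the class median. The dotted line at 100% marks extract cells at the control mean, and the class medians lie between 88.9% and 95.6%. The 2-fold fall asked by the rule keeps out values under about 50%.

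Of the 161 genes raised at least 2-fold with LPS without overlap with control, 83 had extract minus LPS above -1. The 41 raised genes with overlapping values are not among them. In TPM itself some of the 83 fell by more than 2-fold. The closest to the limit stood at 5.05 TPM with LPS and 2.01 TPM with extract. In 10 of the 83, between 75% and 100% of the increase was absent. The 83 started higher, with a median of 8.42 TPM in control, and rose less, with a median LPS minus control of 1.46 against 1.99 in the members. Their median extract minus LPS was -0.43, and in 73 of them all extract values lay above control. These contrasts follow in part from the rule and were not tested.

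Single libraries moved many members together. Within the extract group replicate 3 held the lowest value in 39 of 71 members, against 32.5% of all tested genes, and replicate 1 the highest in 36, against 33.5% of all genes. Within the LPS group replicate 1 was lowest in 40 members, against 32.4% of all genes. The median deviation of the members from their group mean was -0.06 on the log2 scale in extract replicate 3 and in LPS replicate 1, and 0.06 in extract replicate 1. Without extract replicate 3 the rule chose 68 genes, 67 of them members, without extract replicate 1 it chose 74, 70 of them members, without LPS replicate 1 it chose 76, 69 of them members, and without LPS replicate 3 it chose 77, 66 of them members.

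The relative use of transcripts within a gene was not itself used to choose the members and was tested. A share is divided by the gene's TPM, which the rule used, so it moves when 1 transcript alone carries the change in level. The share tests are therefore not independent of the rule. Transcripts were linked to genes by their TPM, and 36 members had more than 1 linked transcript. The same transcript led in LPS and extract cells in 32 of these 36, and in LPS and control cells in 23. Of the 13 with another leading transcript in control, 9 were under 1 TPM there. The share test took genes averaging at least 5 TPM and transcripts averaging 10% to 90% of the gene, both over all 9 libraries. It covered 12 members and 32 of their transcripts. Of these 12, 7 averaged under 5 TPM in control or extract cells and passed that minimum through libraries in which the rule made them high, so the counts over the 12 are a description. A share shifted by at least 10 points in 6 of the 12 in LPS versus control (limma, adjusted p below 0.05 over 9157 transcripts), where 1.37% of all 4082 genes were called. The same 6 were called in extract versus control, where 0.637% of all genes were called. The 2 comparisons share the control libraries. In extract versus LPS 1 of the 12 was called, against 0.392% of all genes. With a minimum of 5 TPM in every group, chosen after seeing the data, 5 members were tested, and ENSRNOG00000011895 and ENSRNOG00000027002 were called against control both in LPS and in extract cells. Over all 3959 genes of that test 1.16% were called with LPS against control and 0.48% with extract against control. In extract versus LPS ENSRNOG00000011895 was called, against 0.354% of all genes. The background shares were not matched to the members' changes in level. The added minimum left the 10% to 90% window as it was. The transcripts of ENSRNOG00000011895 averaged 91.1% and 8.86% in control and 9.1% and 90.9% in LPS cells, outside that window. They passed it through their change between groups, so their calls are a description too. The leading control transcript of ENSRNOG00000027002 lay inside it in each group, at 60.7%, 31.1% and 31.8% in control, LPS and extract cells. Of the 6 members, 2 were under 1 TPM in control, where shares rest on very little RNA, and the other 4 are described next.

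ENSRNOG00000011895 changed its leading transcript. The gene stood at 11.13, 11.76 and 13.24 TPM in control, 80.55, 86.83 and 89.95 TPM in LPS, and 38.17, 43.78 and 39.11 TPM in extract libraries. One transcript made up 90.2%, 92.4% and 90.8% of it in the control libraries, 9.21%, 7.97% and 10.1% in the LPS libraries, and 29.8%, 22.5% and 28.1% in the extract libraries. The level of that transcript moved little beside the gene's, at 10.04, 10.86 and 12.02 TPM in control libraries, 7.42, 6.92 and 9.10 TPM with LPS and 10.7 ± 0.783 TPM (SD, n = 3) with extract. The rise lay in the other transcript, at 1.07 ± 0.16 TPM in control libraries, 78.0 ± 4.21 TPM with LPS and 29.6 ± 3.79 TPM with extract. With the first transcript nearly level, the shares largely follow the level of the gene, which the rule chose. The share of this second transcript was 82.0 ± 2.09 points (SE) higher in LPS than in control (limma adjusted p = 4.85e-07) and 64.3 ± 2.09 points higher in extract than in control cells (limma adjusted p = 3.01e-06). It was 17.7 ± 2.09 points lower in extract than in LPS cells (limma adjusted p = 0.0188). That last call was lost with the replicate block and without LPS replicate 1, 2 or 3 or extract replicate 1 or 3, with a limma adjusted p of up to 0.126.

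ENSRNOG00000027002 had a similar level in extract and control cells with another mix of transcripts. It was the member closest to the LPS minus control limit, at 1.02. Without LPS replicate 3 it fell below that limit, at 0.997, and with a pseudocount of 5 it stood at 0.80. The gene stood at 9.51, 9.55 and 9.45 TPM in control, 20.45, 19.48 and 20.89 TPM in LPS, and 8.68, 9.06 and 9.54 TPM in extract libraries, so that control and extract values overlapped. The transcript that led in control cells held 63.4%, 60.5% and 58.1% there, 32.9%, 25.8% and 34.7% in LPS libraries, and 30.3%, 31.7% and 33.3% in extract libraries. No LPS or extract library reached the lowest control share. The share was 29.6 ± 2.61 points (SE) lower in LPS than in control (limma adjusted p = 0.00229) and 28.9 ± 2.61 points lower in extract than in control cells (limma adjusted p = 0.00296). Between extract and LPS cells it differed by 0.67 ± 2.61 points (limma adjusted p = 0.958). A second transcript went from 9.7 ± 4.1% in control to 45.9 ± 3.9% in LPS and 36.1 ± 6.9% in extract cells (SD, n = 3). Its extract-control shift of 26.4 points (limma adjusted p = 0.0327) was called in 4 of 12 fits, with an adjusted p of up to 0.142.

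In the 2 remaining members, extract and LPS shares lay close together and away from control. Both averaged under 5 TPM in control cells, and the minimum of 5 TPM in every group left them out. Their shifts are therefore a description without a test. In one, with a mean of 3.69 TPM in control cells, 16.7 TPM with LPS and 6.95 TPM with extract, a transcript listed at 0 TPM in all control libraries held 85.2 ± 4.2% of the gene with LPS and 87.0 ± 1.6% with extract (SD, n = 3). Against control its share was higher by 85.2 ± 2.2 points (SE) with LPS and by 87.0 ± 2.2 points with extract. The transcript that led in control, with a share of 56.1 ± 4.6%, was listed at 0 in all 6 other libraries. In the other member, at 3.04, 13.3 and 4.85 TPM, the leading transcript fell from a share of 84.1 ± 2.4% in control to 39.4 ± 3.2% with LPS and 38.8 ± 9.6% with extract. Against control the share fell by 44.7 ± 4.4 points (SE) with LPS, and it fell by 45.3 ± 4.4 points with extract. Transcript values are estimates that divide shared reads between similar transcripts, and an exact 0 can be a failed estimate.

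**Figure D5:**
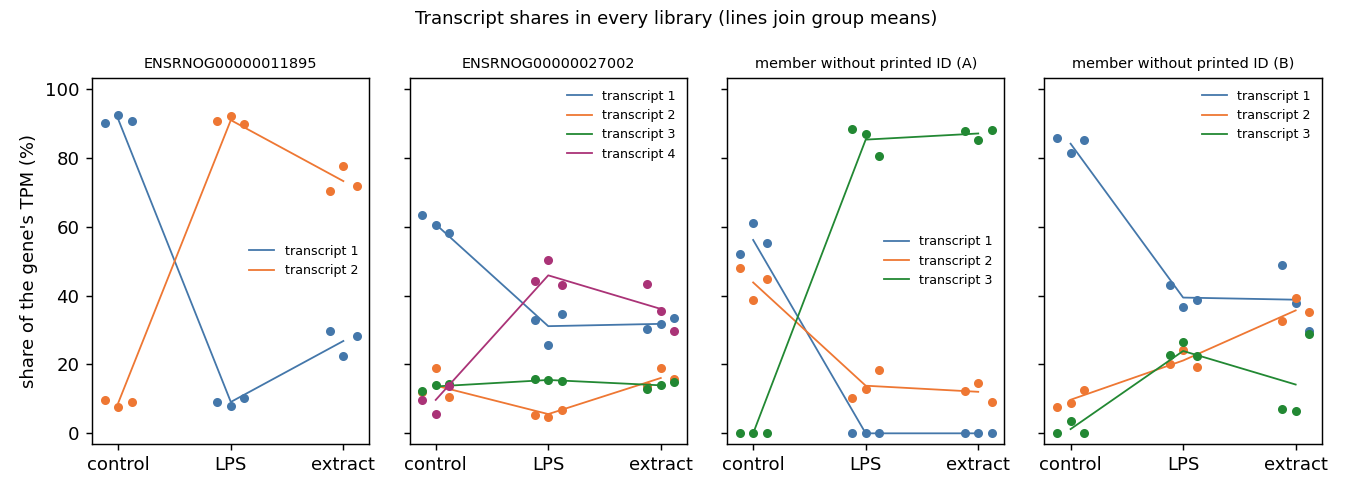
Share of the gene's TPM held by each tested transcript (vertical axis, percent) in control, LPS and extract libraries, for the 4 members with a called share change and at least 1 TPM in control. Points are libraries, colours are transcripts numbered by their control share, and lines join group means. In all 4 panels the transcript leading in control has a lower share in every LPS and extract library than in any control library.

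The 6 members with a share change against control were called in both comparisons with the replicate block and with any 1 library left out. Only ENSRNOG00000011895 and ENSRNOG00000027002 of them had at least 5 TPM in every group, so for the others this is a description. Over all 4082 genes the block gave 17 calls with LPS and 10 with extract against control. Leaving out 1 library gave 12 to 61 and 11 to 37. In the other 6 tested members no transcript passed. The largest uncalled shift among them in LPS versus control was 19.1 points, in a gene at 2.08 TPM in control (limma adjusted p = 0.569). Shares in some of these members differed widely between extract libraries, with an SD of up to 35.5 points. In data simulated with a shift of 20 points the procedure recovered 66.5% of the changed transcripts, so a member without a call is not shown to have kept its transcript shares.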

How the data were processed

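RNA of 9 HBZY-1 libraries was analysed from 2 tables, one of 30560 genes and one of 54991 transcripts. Both were deposited by the authors as TPM with 2 decimals. Per the submitters' processing notes, fastp, HISAT2 2.1.0 and RSEM 1.3.3 were used. The roles and settings of these tools, the genome build, the annotation and the strandedness were not given in the sources used here. TPM keeps no sequencing depth, so precision rests on 3 libraries per group and no counting interval is given. Columns were assigned by the code that opens the title of a library.

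Genes averaging 1 TPM or more were fitted on log2(TPM + 1) with limma 3.58.1 (R 4.3.3), with a mean-variance trend, a mean per group, all 9 libraries, two-sided tests and Benjamini-Hochberg adjustment over 12192 genes. Consecutive transcripts whose TPM summed to a gene's value in each of the 9 libraries (tolerance 0.006 TPM for every rounded number) were linked to it, which succeeded for 12192 genes. Transcript shares, in percent, were computed from the deposited TPM and tested with limma without a trend, in genes with no value of 0. Differences in percent points were adjusted over 9157 transcripts.

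On simulated LPS versus control data for 12192 genes, 77.6% of changes of 0.5, 92.5% of 1 and 100% of 2 on the log2 scale were recovered, with 13 false calls. On 9157 simulated shares there were 10 false calls.

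The members, gene lists and tests were chosen with earlier results of these data known. Names were to come from a reference of 47357 genes, of which 0 carry an Ensembl identifier, so the gene lists and cell type markers were not used. The rule for named genes then allows 2 identifiers, those with the largest LPS rise and the largest fall in extract cells. ENSRNOG00000011895 and ENSRNOG00000027002 were added after their values were seen, as the 2 highest in LPS cells among the members with a changed transcript share and at least 1 TPM in control. Alternatives were pseudocounts of 0.1 and 5, no filter or 5 TPM, median-of-ratios scaling, quantile normalization, the replicate block, a minimum of 20 TPM for shares or, added after seeing the data, of 5 TPM in every group, and leaving out each library.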

Additional observations from a re-analysis of the deposited data

How the results depend on the processing

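The number of members, 71, fell to 37 with a pseudocount of 5 (36 of them shared) and to 45 with a filter of 5 TPM, and was 84 with a pseudocount of 0.1, 82 with either scaling and 68 to 77 without 1 library. The median LPS minus control of the members was 2.63 with a pseudocount of 0.1, 1.29 with 5, 2.03 with median-of-ratios scaling, 2.02 with quantile normalization and 1.95 to 2.02 without 1 library. The median extract minus LPS was -1.80 and -1.07 with the pseudocounts of 0.1 and 5, and the median extract minus control 0.66 and 0.18. The median share of the increase absent in extract cells was 89.6% to 92.7% without 1 library; it uses no pseudocount. With a minimum of 20 TPM only 4 members entered the share test, and 2 were called in each comparison with control. These were ENSRNOG00000011895 and a member at 0.147 TPM in control, which passed through the other libraries. The calls of both are a description. Over all 2613 genes of that test 53 were called with LPS and 21 with extract against control. With the added minimum of 5 TPM in every group 2 of 5 were called, ENSRNOG00000011895 and ENSRNOG00000027002. The replicate block gave 17, 4 and 10 genes with a changed share in LPS versus control, extract versus LPS and extract versus control, in place of 56, 16 and 26, and leaving out 1 library gave 12 to 61, 7 to 15 and 11 to 37. Of the members, 0 were called in extract versus LPS with the block and 0 to 1 without 1 library. The block moved no count of gene-level calls by over 1.5 times (4658 in place of 4962 in LPS versus control). Same-numbered libraries of different groups deviated with correlations of -0.055 to 0.095, so the numbers were not taken as a pairing. With the 71 members held fixed, 40 to 44 lay above control, 17 to 24 overlapped and 7 to 12 lay below with either scaling or without 1 library. A pseudocount keeps the order of the values, so it could not change these counts. The directions of the 4 identified members were kept under all alternatives run. Depth is unknown, so what it limits was not examined.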
